A study of Mus musculus with 3 samples.

Results

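The 42 genes described here are the numbered cadherins and non-clustered protocadherins, together with Fat1 to Fat4, Dchs1 and Celsr1 to Celsr3. They were chosen by symbol alone, as every row of the count tables named Cdh or Pcdh plus a number and the 8 named large cadherins, out of 32531 gene symbols. Their messages were measured on ribosomes tagged with EGFP-L10a in adult mice of the transgenic line Slc17a6-TRAP JX883, in which the driver gene Slc17a6 encodes the vesicular glutamate transporter VGLUT2. Prefrontal cortex was homogenized without any treatment of the mice, tagged polysomes were pulled down with anti-EGFP antibodies (translating ribosome affinity purification, TRAP), and the bound RNA was sequenced. Each of the 3 libraries pooled 3 mice. All 3 libraries form 1 group from 1 transgenic line. Input RNA was not analysed here. The levels therefore say how much of a message was in the pulled-down RNA, and nothing of enrichment relative to whole tissue.

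Cadherins are calcium-dependent adhesion proteins whose extracellular repeats bind those of a neighbouring cell. Type I and type II cadherins bind catenins inside the cell, which couple them to actin, and different neurons carry different combinations of them. The delta protocadherins adhere more weakly and act in axon sorting, dendrite growth and synapse turnover. The Fat, Dachsous and Celsr proteins are very large cadherins of planar polarity, the coordinated orientation of cells and axons within a tissue.

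Totals over named genes ran from 8964137 counts in replicate 2 to 12648577 in replicate 3. A level in CPM is a gene's counts scaled to a common total, and a level in TPM is also divided by exon length and serves to compare genes with each other. The driver gene Slc17a6 stood at 831 ± 97.4 CPM (SD, n = 3). All 8 of 8 markers of cortical glutamatergic neurons and all 8 of 8 GABAergic markers reached 1 CPM in every library, with summed levels of 4306 to 4565 and 936 to 989.7 CPM. Other cell types and neighbouring regions were represented too. The 8 astrocyte markers summed to 1366 to 1564 CPM, the 8 oligodendrocyte markers to 431 to 590 CPM, and the 7 striatal neuron markers to 372 to 611 CPM. Endothelial markers summed to 9.69 to 10.4 CPM, with 2 of 6 at 1 CPM in every library. Thalamic markers summed to 424 to 437 CPM with 5 of 6 at 1 CPM, although Gbx2 had 0 counts in all 3 libraries. Microglial markers summed to 32.2 to 40.95 CPM with 6 of 7 at 1 CPM and C1qa at 0 counts, and mural and meningeal markers to 27.4 to 32.8 CPM with 4 of 6 at 1 CPM and Slc47a1 at 0 counts. Ependymal and choroid plexus markers summed to 4.21 to 9.71 CPM, with 1 of 6 at 1 CPM and Tmem212, Folr1 and Kcne2 at 0 counts.

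Of the 42 genes, 29 reached 1 CPM in every library, or 69.0%, against 37.9% of all 32531 symbols and 67.0% of the 18377 symbols with a count. Their median level was 29.3 TPM, beside 26.9 TPM for all genes at 1 CPM in every library that had a length. Averages of 100 CPM or more were found for 9 of the 42 (21.4%), against 11.7% of all symbols with a count. CPM is not divided by length, so these 2 shares also depend on the lengths of the genes. The 42 include 2 genes with 0 counts, whereas the second share leaves such symbols out. The 13 genes that missed 1 CPM in at least 1 library were Cdh1, Cdh3, Cdh5, Cdh15, Cdh16, Cdh17, Cdh19, Cdh23, Cdh24, Cdh26, Pcdh12, Fat2 and Celsr1. Cdh16, known as kidney cadherin, and Pcdh12, an endothelial protocadherin, had 0 counts in all 3 libraries. Counting error alone leaves room for 3 counts where none were seen, which is 0.238 CPM in replicate 1, 0.335 CPM in replicate 2 and 0.237 CPM in replicate 3. Fewer cells of a type and less RNA per cell cannot be told apart in pooled tissue of this kind.

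**Figure D1:**
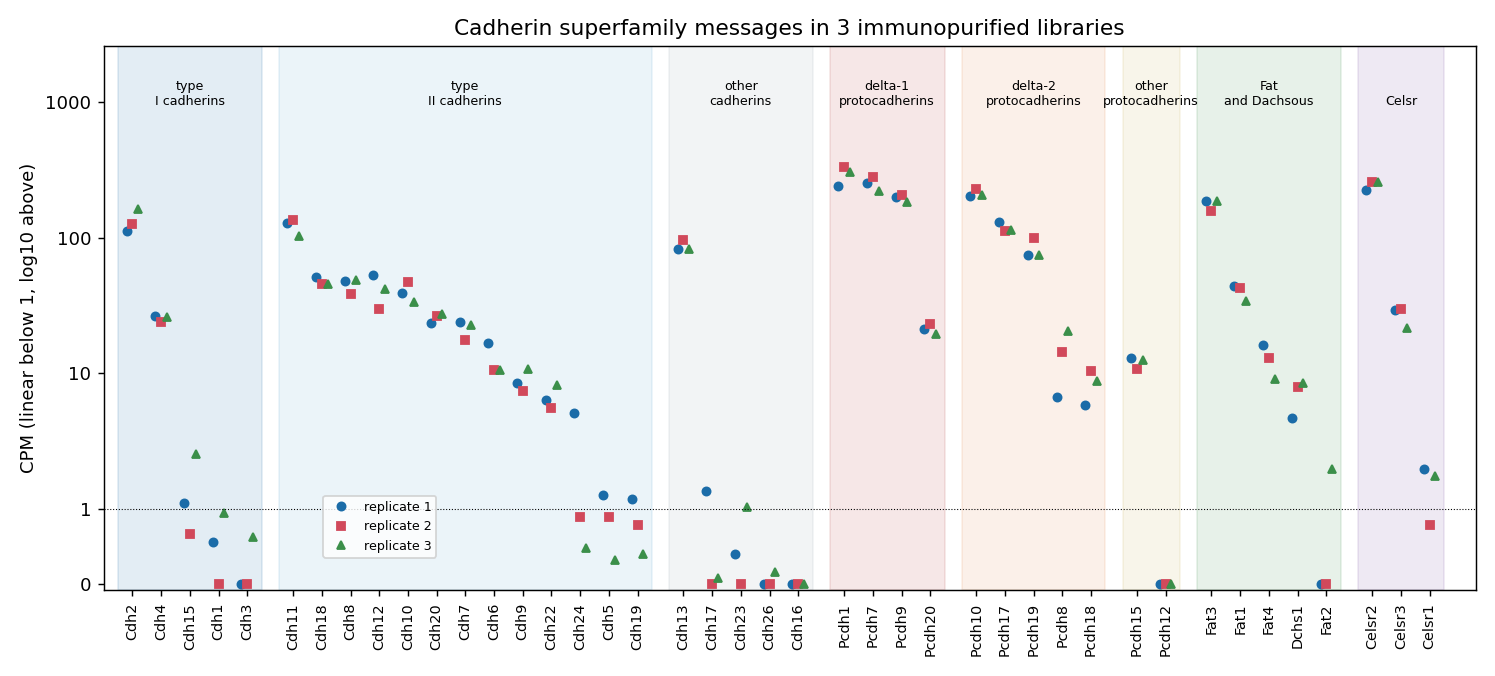
Level of each of the 42 genes in CPM (vertical axis, linear below 1 and logarithmic above) in replicates 1, 2 and 3, grouped by family, with a dotted line at 1 CPM. The delta-1 protocadherins and Celsr2 lie between 184.9 and 332 CPM apart from Pcdh20, whereas 13 genes have at least 1 point below the dotted line.

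The type I cadherins were led by Cdh2, N-cadherin, which joins the pre- and postsynaptic membranes of excitatory synapses. Cdh2 (ENSMUSG00000024304.14, mm10 chromosome 18, 16588877 to 16809246, minus strand) stood at 112, 127 and 164 CPM in replicates 1, 2 and 3. Replicate 3 was highest, and the spread of 19.9% (coefficient of variation, CV) did not pass the test of variation described below (adjusted p = 0.79 in edgeR). The markers of astrocytes, a class that also expresses Cdh2, summed to 1366, 1517 and 1564 CPM in replicates 1, 2 and 3. Of these markers Aldoc, Aqp4 and Gfap rose in that order, and Slc1a3 and Sox9 were highest in replicate 3 but lowest in replicate 2. Slc1a2 and Gja1 were highest in replicate 2, and Aldh1l1 fell. The part of astrocyte messages in the spread of Cdh2 was not tested. Cdh4, R-cadherin, stood at 26.6, 23.9 and 26.2 CPM, with the smallest CV of all 42 genes, 5.74%. Cdh15, M-cadherin of muscle and cerebellar granule cells, had 14, 6 and 32 counts, or 1.11, 0.669 and 2.53 CPM. Epithelial E-cadherin (Cdh1) and P-cadherin (Cdh3) had at most 0.949 and 0.632 CPM in any library. The neural pair Cdh2 and Cdh4 thus held nearly all type I counts.

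Of 13 type II cadherins, 10 reached 1 CPM in every library. Cdh11 (ENSMUSG00000031673.6, chromosome 8, 102632095 to 102785642, minus strand), a type II cadherin of neurons and mesenchymal cells, led the group with 129, 135 and 103 CPM. Cdh18 followed per length with 51.2, 45.5 and 45.7 CPM, and Cdh12 with 53.4, 29.7 and 42.0 CPM. Cdh12 was the more variable of the latter pair, with a CV of 28.5% against 6.83% for Cdh18, and its lowest library was replicate 2. Cdh8, a cold-sensing and corticostriatal circuit cadherin, averaged 45.2 ± 5.72 CPM, and Cdh10 averaged 40.0 ± 6.76 CPM. The remaining members at 1 CPM in every library ran from 6.72 CPM for Cdh22 to 25.8 CPM for Cdh20, with Cdh7, Cdh6 and Cdh9 between them. Cdh5, the adhesion protein of endothelial junctions, had only 16, 8 and 4 counts. Cdh19, a cadherin of glia and Schwann cells, had 15, 7 and 5 counts.

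Among cadherins of other structure, Cdh13 alone reached 1 CPM in every library. T-cadherin, its product, is held in the membrane by a lipid anchor and has no catenin-binding tail. Cdh13 (ENSMUSG00000031841.19, chromosome 8, 118283733 to 119324921, plus strand) stood at 82.7, 96.3 and 82.9 CPM, and its 3 libraries lay within a CV of 8.88%. Cdh17, the liver-intestine cadherin, had 17, 0 and 1 counts. Cdh23, the tip-link cadherin of hair cells, had 5, 0 and 13 counts. Pcdh15, its partner in the tip link, was by contrast present in every library, with 12.9, 10.7 and 12.6 CPM, although these reads spread over long exons gave only 2.55 ± 0.247 TPM.

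The delta-1 protocadherins were the highest group. Pcdh1 (ENSMUSG00000051375.15, chromosome 18, 38185914 to 38212053, minus strand) stood at 242, 332 and 305 CPM, rank 542 of all genes by mean CPM. Pcdh7 (ENSMUSG00000029108.14, chromosome 5, 57717967 to 58133230, plus strand) stood at 252, 281 and 221 CPM. Of its exonic bases 21.1% were shared with 4932441J04Rik on the opposite strand, and reads there may not have been counted or told apart. Pcdh9 (ENSMUSG00000055421.8, chromosome 14, 93013410 to 93890679, minus strand) was steadier, at 199.6, 208 and 184.9 CPM. Pcdh20 was the lowest delta-1 member with 21.4, 23.0 and 19.6 CPM, below every library of the other 3.

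All 5 delta-2 protocadherins, whose cytoplasmic tails can recruit the actin-regulating WAVE complex, reached 1 CPM in every library. Pcdh10 (ENSMUSG00000049100.15, chromosome 3, 45378398 to 45435623, plus strand), which acts in the removal of excitatory synapses, stood at 205, 230 and 207 CPM. Pcdh17, which groups synaptic vesicles in corticobasal circuits, stood at 131, 112 and 115 CPM. Pcdh19, an X-linked gene of a clustering epilepsy, stood at 74.8, 99.95 and 75.1 CPM, with replicate 2 apart from the other two. Pcdh18 averaged 8.34 ± 2.28 CPM. Pcdh8, known as arcadlin and named for its induction by synaptic activity, stood at 6.67, 14.4 and 20.4 CPM and was the most variable delta-2 member, with a CV of 49.8%.

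Fat3, a Fat cadherin of neuronal dendrites, dominated its group with 188, 157 and 187 CPM (ENSMUSG00000074505.5, chromosome 9, 15910189 to 16501285, minus strand). Fat1 stood at 44.2, 42.4 and 34.1 CPM. Fat4 stood at 16.3, 12.9 and 9.01 CPM, and its ligand Dchs1 at 4.69, 7.92 and 8.46 CPM. Fat4 was highest and Dchs1 lowest in replicate 1, but neither passed the test of variation. Fat2 had counts in replicate 3 only. Opposite-strand genes shared 8.68% of the exonic bases of Fat4 and 5.86% of those of Dchs1.

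Celsr2 (ENSMUSG00000068740.13, chromosome 3, 108390851 to 108415552, minus strand), a seven-pass cadherin that maintains dendrites, stood at 224, 260 and 258 CPM. Celsr3, which steers forebrain axon tracts, stood at 29.5, 29.8 and 21.7 CPM. Celsr1, the member best known from neural tube and ependyma, stood at 1.99, 0.781 and 1.74 CPM. The ranges of the 3 Celsr genes did not overlap.

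Per length, the delta-1 protocadherins held 35.4%, 38.9% and 35.2% of the summed TPM of the 42 genes in replicates 1, 2 and 3. Type II cadherins followed with 25.3%, 20.9% and 22.0%, then delta-2 protocadherins with 14.3% ± 0.582 (SD, n = 3), Celsr genes with 9.68% ± 0.383 and type I cadherins with 8.43% ± 1.55. Fat and Dachsous genes held 4.98% ± 0.454, other cadherins 3.21% ± 0.147 and other protocadherins 0.207% ± 0.0267. The type I share was highest in replicate 3 at 10.2%, where Cdh2 was highest. Without division by length the long Fat and Dachsous messages held 10.1% in place of 4.98%, and with the length of the longest transcript the other cadherins held 5.63% in place of 3.21%.

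**Figure D2:**
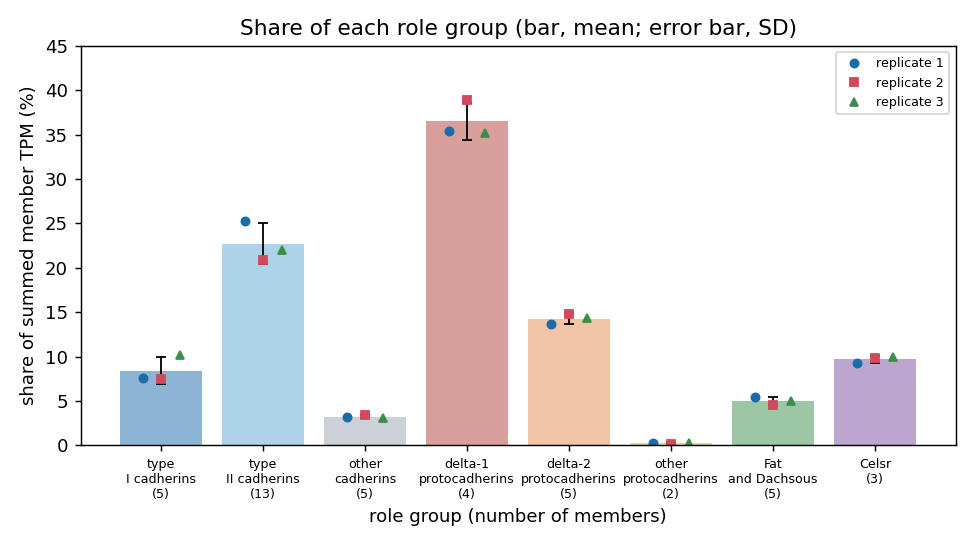
Share of each family in the summed TPM of the 42 genes (vertical axis, percent), with bars for the mean, error bars for the SD and points for replicates 1, 2 and 3. The delta-1 bar reaches 36.5% with 4 genes, and the type II bar 22.7% with 13 genes.

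In order of TPM the genes began with Pcdh1 at 168 ± 27.1, Pcdh9 at 146 ± 8.78, Pcdh7 at 119 ± 14.4, Celsr2 at 108 ± 9.11 and Cdh2 at 83.6 ± 16.7 TPM. These 5 genes held 50.4% ± 2.39 of the summed TPM. Of the 39 pairs of neighbours in the order of the 40 genes with a count, 35 had ranges over the libraries that overlapped. Of these 35, Celsr2 over Cdh2, Cdh18 over Pcdh17, Pcdh17 over Fat3 and Cdh7 over Cdh22 kept their order in 3 of 3 libraries. The others did not. The 4 steps with separate ranges lay between Pcdh9 and Pcdh7, Pcdh10 and Cdh18, Cdh8 and Cdh10, and Cdh6 and Fat4. As a ratio of means, the step from Cdh6 to Fat4 was the largest of these, from 7.01 to 3.73 TPM. This order, its 5 leading genes and its steps rest on merged exon lengths and were not redone with other lengths. Cdh10 has 10051 merged exonic bases but 3765 in its longest transcript, and Cdh8 has 7740 and 4594, so the step between them depends on the length used. Cdh2, with 8066 and 4843, shortens more than Celsr2, with 11513 and 10598.

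**Figure D3:**
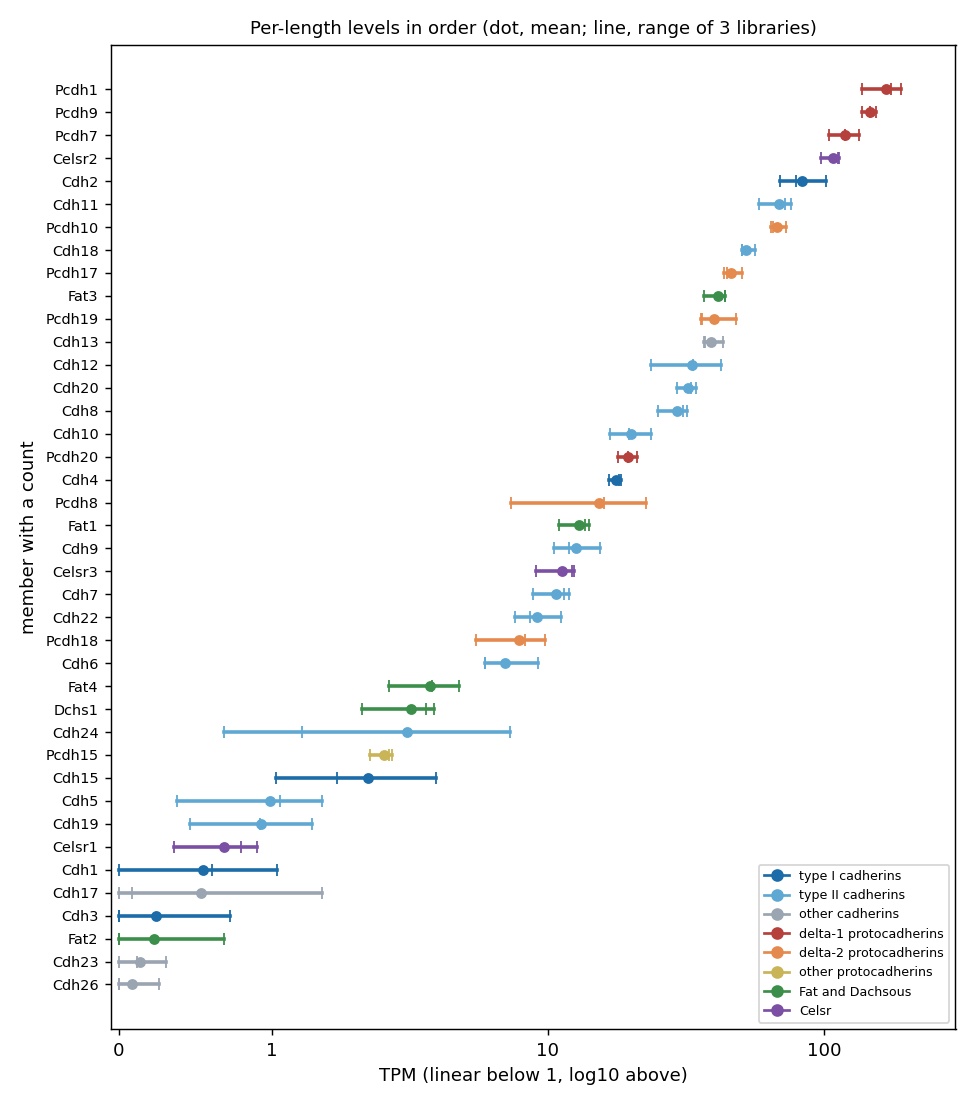
The 40 genes with a count in order of mean TPM (horizontal axis, linear below 1 and logarithmic above), with dots for the mean, ticks for the 3 libraries and lines for their range, coloured by family. With merged exon lengths, protocadherins and Celsr2 fill the top 4 places, and the ranges of most neighbours overlap.

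In 4 pairs, levels per length were compared within each library on the log2(TPM + 0.5) scale. Cdh2 and Cdh11, the leading type I and type II cadherins, differed by 0.27 ± 0.47 (SD, n = 3), and Cdh2 was the higher in 2 of 3 libraries (p = 0.75 by exact sign-flip permutation, adjusted p = 0.75). That difference became -0.0027 without replicate 3. Pcdh10 lay below Pcdh9, with a difference of -1.11 ± 0.07 in 3 of 3 libraries, so that Pcdh9 was 2.16-fold higher (p = 0.25, adjusted p = 0.5, exact sign-flip permutation). Its size and direction rested on the lengths used: the difference was -0.22 with the length of the longest transcript of each gene, and 0.11 in favour of Pcdh10 in CPM. Celsr3 lay below Celsr2, with a difference of -3.22 ± 0.32 in 3 of 3 libraries, a 9.32-fold higher level of Celsr2 (exact permutation p = 0.25, adjusted p = 0.5). Fat4 and Dchs1 differed by 0.20 ± 0.74, with Fat4 higher in 2 of 3 libraries (exact permutation p = 0.75, adjusted p = 0.75), by -0.20 without replicate 1, and by 0.82 in CPM. With 3 libraries the smallest p of this two-sided test is 0.25, so no pair could pass 0.05.

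The only test across many genes asked which messages varied between the 3 libraries more than genes of like abundance. In edgeR, a negative binomial model with 1 mean per gene was fitted and its deviance tested, over 14774 genes with at least 10 counts in some library. Of the 42 genes 38 were tested, and 0 passed an adjusted p of 0.05, where 0.244% of all genes tested did. At an unadjusted p of 0.05, 4 of 38 passed, against 7.22% of all genes. The limma variance test also called 0 of 38, where 0.0812% of all genes passed. With a common in place of a trended dispersion, 3 genes passed (Cdh17, Cdh24 and Fat2), where 7.43% of all genes did, and each of these averaged under 3 CPM.

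The 4 genes below the unadjusted threshold in edgeR were Fat2, Pcdh8, Cdh24 and Cdh17. Of these, Fat2, Cdh24 and Cdh17 are named because of their values. In the limma variance test 3 of 38 were below it, Cdh12, Pcdh1 and Pcdh8, against 4.85% of all genes, so only Pcdh8 was below it in both. Pcdh8 had 84, 129 and 258 counts and was 3.06 times as high in replicate 3 as in replicate 1 (adjusted p = 0.454 in edgeR). The 95% exact Poisson intervals of its 3 levels, 5.32 to 8.26, 12.01 to 17.1 and 17.98 to 23.0 CPM, did not overlap, but cover counting error only. Beside Pcdh8, striatal markers summed to 372, 537 and 611 CPM with 7 of 7 at 1 CPM in every library, and olfactory bulb markers to 179, 154 and 70.7 CPM with 5 of 7. Of the striatal markers, Rgs9 (34.0, 22.4 and 41.8 CPM) and Rarb (8.89, 21.9 and 13.4 CPM) did not rise in that order, and the others did. Glutamatergic, astrocyte, oligodendrocyte, oligodendrocyte precursor, microglial and endothelial sums also rose from replicate 1 to 3. GABAergic, thalamic, mural and meningeal, and ependymal and choroid plexus sums did not rise in order. No list's part in the levels of Pcdh8 was tested. Of the exonic bases of Pcdh8, 9.61% were shared with a gene on the opposite strand.

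Cdh24, a type II cadherin, had 64, 8 and 6 counts, or 5.08, 0.892 and 0.474 CPM (adjusted p = 0.563 in edgeR). Replicate 1 stood apart, and without it the mean of Cdh24 was 0.683 in place of 2.15 CPM. Cdh17 was also highest in replicate 1, with 17, 0 and 1 counts (adjusted p = 0.624 in edgeR), and averaged 0.0395 in place of 0.476 CPM without it. Fat2, a cadherin of cerebellar granule cells, had 0, 0 and 25 counts, and the 95% exact Poisson interval in replicate 3 was 1.28 to 2.92 CPM (adjusted p = 0.3 in edgeR). Gabra6, a defining message of mature cerebellar granule cells looked up after these values were seen, had 0, 0 and 1 counts. Of the other granule cell genes looked up with it, Barhl1 had 0, 0 and 1 counts and Atoh1 had 0 in all 3 libraries. Cbln3 had 16, 27 and 43 counts, or 1.27, 3.01 and 3.40 CPM, and was highest in replicate 3 like Fat2. Their part in the level of Fat2 was not tested. The means of Cdh1, Cdh15 and Cdh23 also fell by over 1.5 times without replicate 3, to 0.278, 0.891 and 0.199 CPM, and the 8 counts of Cdh3 and 2 counts of Cdh26 were all in replicate 3.

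**Figure D4:**
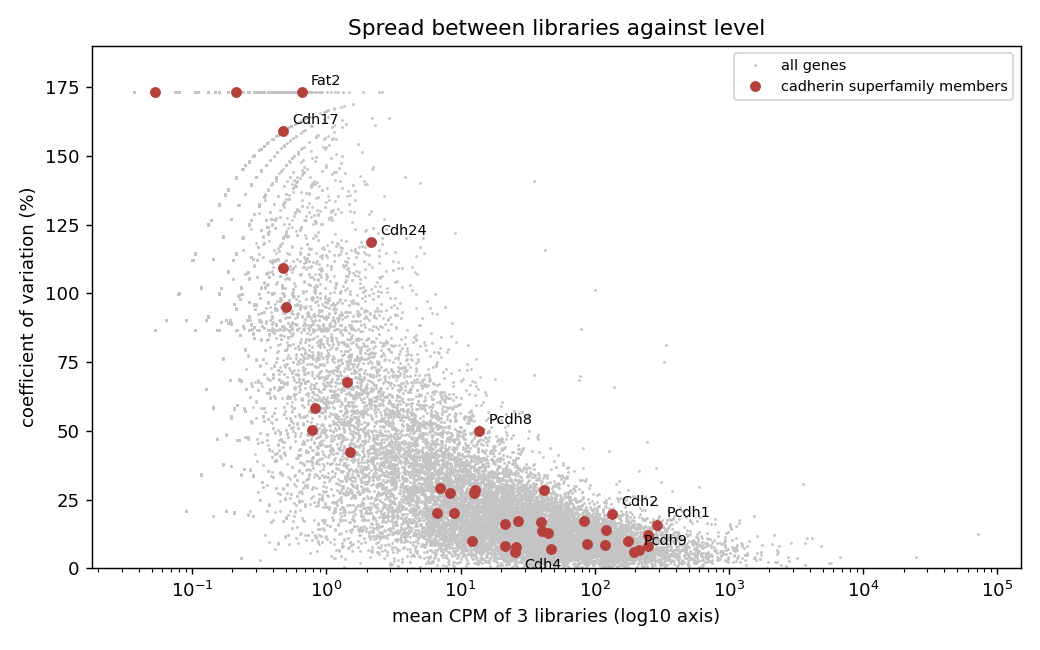
Spread between the 3 libraries (vertical axis, CV in percent) against mean level (horizontal axis, CPM on a log10 axis) for all genes in grey and the cadherin superfamily in red. Pcdh8 and Cdh24, at 49.8% and 119%, lie toward the upper edge for their level, and members above 100 CPM lie below 20%.

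Among members well above the low counts, the typical spread lay close to that of all genes. The 25 members that reached 1 CPM in every library and averaged 10 CPM or more had a median CV of 12.7%, beside 12.6% for 8742 genes of all kinds. Among these 25, replicate 3 was highest for 4, replicate 1 for 10 and replicate 2 for 11, where replicate 3 was highest for 31.7% of all such genes. No test was made of that share.

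The genes were also considered by position on mm10. Chromosome 15 carried Cdh6, Cdh9, Cdh10, Cdh12 and Cdh18 in a row, and these 5 type II cadherins all reached 1 CPM in every library, at 8.87 to 47.5 CPM on average. Chromosome 8 carried 9 members, of which 4 reached 1 CPM in every library. There Cdh11, at 122 ± 16.8 CPM, was followed after 1316 kb by the endothelial gene Cdh5 at 0.826 CPM. Cdh3 and Cdh1, the epithelial pair, lay 46.1 kb apart and were both low. Pcdh1 and Pcdh12 on chromosome 18 lay 55.0 kb apart, yet Pcdh1 averaged 293 CPM and Pcdh12 had 0 counts. On chromosome 1, Cdh7 at 21.4 CPM and Cdh19 at 0.789 CPM lay 748 kb apart. Neighbouring members thus had similar levels in some places and very different ones in others.

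Several members are among the longest genes of the genome. Cdh12, Cdh13, Cdh18, Fat3, Pcdh9 and Pcdh15 span 500 kb or more, and all 6 reached 1 CPM in every library, as did 88.7% of the 222 genes of that span in the tables. The median span was 145 kb for the 29 members at 1 CPM in every library and 56.8 kb for the other 13, beside 27.5 kb for all genes at 1 CPM in every library with a matched position.

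The proteins that cadherins work with were described from lists chosen by role. Of 41 such genes in the tables, 37 reached 1 CPM in every library, where 37.9% of all symbols and 67.0% of those with a count did. In edgeR, 0 of the 40 tested varied at an adjusted or an unadjusted p of 0.05. Of all genes tested, 0.244% and 7.22% did. Among catenins and the p120 family, which bind cadherin tails, 8 of 9 reached 1 CPM in every library. The highest mean per length was that of the p120 relative Pkp4 at 374 ± 15.97 TPM, and the lowest was alpha-T-catenin, Ctnna3, with 0.318 CPM in replicate 1 and 0 counts in the others. Beta-catenin, Ctnnb1, stood at 335 ± 39.5 TPM, and the neuronal delta-catenin, Ctnnd2, at 358 ± 7.25 TPM, both above Pcdh1, the cadherin with the highest mean TPM. The TPM ranges of Pkp4 and Ctnnd2 overlapped, and in CPM Ctnnd2 was the higher, with means of 735 against 425 CPM. These values of Ctnnb1 and Ctnnd2 were picked out after they were seen. Among junction linkers all 7 of 7 were present, from 2.49 TPM for nectin 2 (Pvrl2 in the tables) to 81.1 TPM for the scaffold gene Magi2.

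All 9 of 9 WAVE complex genes were present at 1 CPM or more, led by Cyfip2 at 1141 ± 61.3 TPM, while its paralogue Cyfip1 stood at 12.8 ± 1.32 TPM. Wasf2 lay close to it at 15.5 ± 4.496 TPM, below Cyfip1 in replicate 1 and above it in replicates 2 and 3. Cyfip1 has 11941 merged exonic bases but 6440 in its longest transcript, so its TPM depends on the length used. Of its exonic bases, 12.5% were shared with genes on the opposite strand. In CPM, Cyfip2 averaged 1612 and Cyfip1 30.5. Planar polarity partners of the Celsr and Fat proteins numbered 7 of 10 at 1 CPM in every library, among them Prickle2 at 97.4 ± 2.57 TPM. The receptor gene Fzd6, at 0.463 TPM, was among the 3 that did not. All 6 of 6 genes for enzymes that process cadherins were present, among them the proprotein convertase gene Pcsk6 at 3.25 ± 1.16 TPM.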

How the data were processed

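RNA-seq of immunopurified RNA was analysed in 3 libraries of 1 group. Deposited values are raw counts for each gene symbol, whole numbers followed by HTSeq summary lines. The submitters' processing notes name STAR 2.0.0e, HTSeq and build mm10; neither annotation nor strand setting is given in the sources used here. Lines naming no gene held 27.2% to 28.3% of counts and were left out of totals and tests. CPM used totals over named genes. TPM used merged exon lengths from GENCODE M21 (mm10), matched by symbol for 87.0% of symbols with a count. The libraries are separate samples by their labels.

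Variation between libraries was tested with edgeR 4.0.16 (TMM normalization, trended dispersion, deviance against chi-square with 2 degrees of freedom, Benjamini-Hochberg adjustment over all genes tested). A prior check on simulated data moved only genes with higher mean counts than Fat2, Cdh24 and Cdh17, by larger folds than Pcdh8 showed. It therefore says nothing of whether such cases would be called. Pairs of genes were compared by exact sign-flip permutation (two-sided), adjusted over 4 pairs. Alternatives were limma 3.58.1, size factors of DESeq2 1.42.0, count minimums of 1 and 30, a threshold of 0.01, a common dispersion, TMM-scaled CPM, totals without Rn45s, other lengths and pseudocounts, and leaving out each library. Software was Python 3.11.15 with scipy 1.17.1, pandas 2.3.3 and numpy 2.4.6, and R 4.3.3.

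The members, lists and tests were chosen with earlier results of these data known. Values per library were given for up to 3 members per family with the highest TPM and for members with an unadjusted p under 0.05 and a mean of at least 5 CPM. Other members in the text, and the highest and lowest partner of each list, complete the account, except for 1 partner that is not reported here. Nectin and afadin genes were matched to older symbols through RefSeq names, and Dchs2 was not analysed here. Without molecular identifiers, reads are not independent molecules.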

Additional observations from a re-analysis of the deposited data

How the results depend on the processing

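No paired analysis was possible because all libraries form 1 group. The number of varying members was 0 with limma, DESeq2 size factors, count minimums of 1 and 30, a threshold of 0.01 and each replicate left out, and 3 with a common dispersion. The number of members at 1 CPM in every library stayed within 29 to 31 when each replicate was left out, and within 1.5 times under the other scalings. With the length of the longest transcript, shares of summed TPM were 34.1% for delta-1 protocadherins, 7.53% for Celsr genes, 5.63% for other cadherins, 3.99% for Fat and Dachsous and 0.388% for other protocadherins. In CPM, shares were 32.4% for delta-1 and 18.6% for delta-2 protocadherins, 15.98% for type II cadherins, 11.7% for Celsr genes, 10.1% for Fat and Dachsous, 3.75% for other cadherins and 0.515% for other protocadherins. These shifts follow from the lengths used. Leaving out each replicate moved no share by more than its SD, but with 3 libraries it cannot, so this says nothing of stability. Totals without Rn45s moved 5 of 42 levels by more than their SD. Rn45s alone stood at 64289, 69828 and 81920 CPM in replicates 1, 2 and 3. Its counts are part of the totals behind every other CPM given here. Pcdh10 minus Pcdh9 became -0.22 with the length of the longest transcript and 0.11 in CPM, and Fat4 minus Dchs1 became 0.82 in CPM. Without each replicate in turn, Cdh2 minus Cdh11 ran from -0.0027 to 0.43 and Fat4 minus Dchs1 from -0.20 to 0.53, which reversed them without replicates 3 and 1. The other pair differences kept their sign under the alternatives run. The cause of the reversals without a replicate was not tested. Members under 3 CPM rest on few counts and are limited by depth.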

Other observations

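Pcdh8 is known for induction by synaptic activity, so the activity-induced messages Fos, Arc, Egr1 and Npas4 were looked up after its values were seen. Pcdh8 was highest in replicate 3 at 20.4 CPM, whereas these 4 genes were lowest there. Fos stood at 32.9, 19.0 and 16.5 CPM in replicates 1, 2 and 3, and Npas4 at 23.7, 17.0 and 15.5 CPM. Arc stood at 184, 165 and 124 CPM, and Egr1 at 1293, 1291 and 956 CPM. No relation across 3 libraries was tested.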
